A study of Sus scrofa with 8 samples.

Results

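Anterior foregut endoderm (AFE) was compared with definitive endoderm (DE), the stage before it, across all genes in pig (Sus scrofa) cells. The comparison sets AFE 1 and AFE 2 against DE 1 and DE 2, 4 of the 8 libraries of the study. All 8 libraries entered the filter, the scaling and the estimate of spread. Of the 25578 genes in the deposited table, 19346 had enough counts to be tested. The study followed pig pluripotent stem cells (PSC) through DE and AFE to lung progenitor organoids (LPO), and messenger RNA was sequenced from 2 libraries at each of the 4 stages. The labels give each stage by its name alone, with no cell line, age, medium, agent or day of culture.

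Definitive endoderm is the inner germ layer, from which the lining of the gut, liver, pancreas and lung arises. The anterior foregut is the front of the gut tube. Its ventral wall gives rise to the thyroid and to the lung bud, whose earliest known marker is the homeobox factor NKX2-1. In the embryo, the mesoderm around the foregut sends retinoic acid, BMP, WNT and FGF signals to it, and the endoderm answers with Hedgehog ligand. Receptors and secreted inhibitors for these signals set which cells respond, and both the endoderm and its mesoderm change their metabolism as they mature.

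Levels are given as CPM, counts scaled by TMM to a common library total, for each library in the order DE 1, DE 2, AFE 1, AFE 2. Fold changes, standard errors (SE, log2 scale) and adjusted p-values come from the edgeR quasi-likelihood test, with Benjamini-Hochberg adjustment over 19346 genes, and a gene with an adjusted p under 0.05 is called higher or lower. Deposited counts summed to 62426232 and 61748702 in DE and to 67566269 and 66608214 in AFE. About 4 counts were taken to stand for 1 read pair, because 46.4% to 50.7% of counts from 1 to 12 in each library were multiples of 4. The labels do not state this ratio, and the bounds and counting intervals below rest on it. For a gene with no count in 1 stage, the fold is a lower bound that sets that stage to 3 read pairs per library (the floor). Where such genes moved a list's median, the median with them at their bound is given as well. Where a stage held 1 to 3 read pairs in all, the ratio is given with its 95% counting interval, and neither the bound nor the interval covers more than counting error. The labels do not tell whether libraries 1 and 2 were grown as separate cultures. The p-values therefore measure only how far the libraries of a stage spread, estimated over all 4 stages, and that spread may be technical. With 2 libraries a stage, the smallest p that an exact permutation test can reach is 0.333.

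Of the 19346 genes, 6838 were called (35.3%), 3467 higher in AFE (17.9%) and 3371 lower (17.4%). These shares are the background for every list count below. They take in long noncoding RNAs and genes under 5 FPKM. Protein-coding genes were called higher in 19.6% and lower in 20.1% of cases. With genes under 5 FPKM left out, 2702 rose and 2562 fell of 9676 tested. A list of well-expressed genes can therefore exceed the shares of all genes without differing from other genes at its level. Changes of 2-fold or more made up 1792 of the rises (9.26% of tested genes) and 1616 of the falls (8.35%). The median log2 change of all tested genes was 0. Among 16127 protein-coding genes 3164 rose and 3237 fell, whereas among 2851 long noncoding RNAs 285 rose and 114 fell. The DE and AFE libraries did not overlap for 13341 genes (69.0%), where a random split of 2 against 2 gives no overlap in 33.3% of cases. Pearson r of log2 CPM across genes, which are not independent replicates, was 0.972 between the DE libraries, 0.974 between the AFE libraries and 0.909 to 0.911 between stages. Without AFE replicate 2, 2296 genes were called higher, and without AFE replicate 1, 2328. Of the gene lists described here, 17 had a median log2 change of less than 0.2 in size, and in 15 of them it moved by over 1.5 times or changed sign when 1 DE or AFE library was left out, so those medians give no direction.

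**Figure D1:**
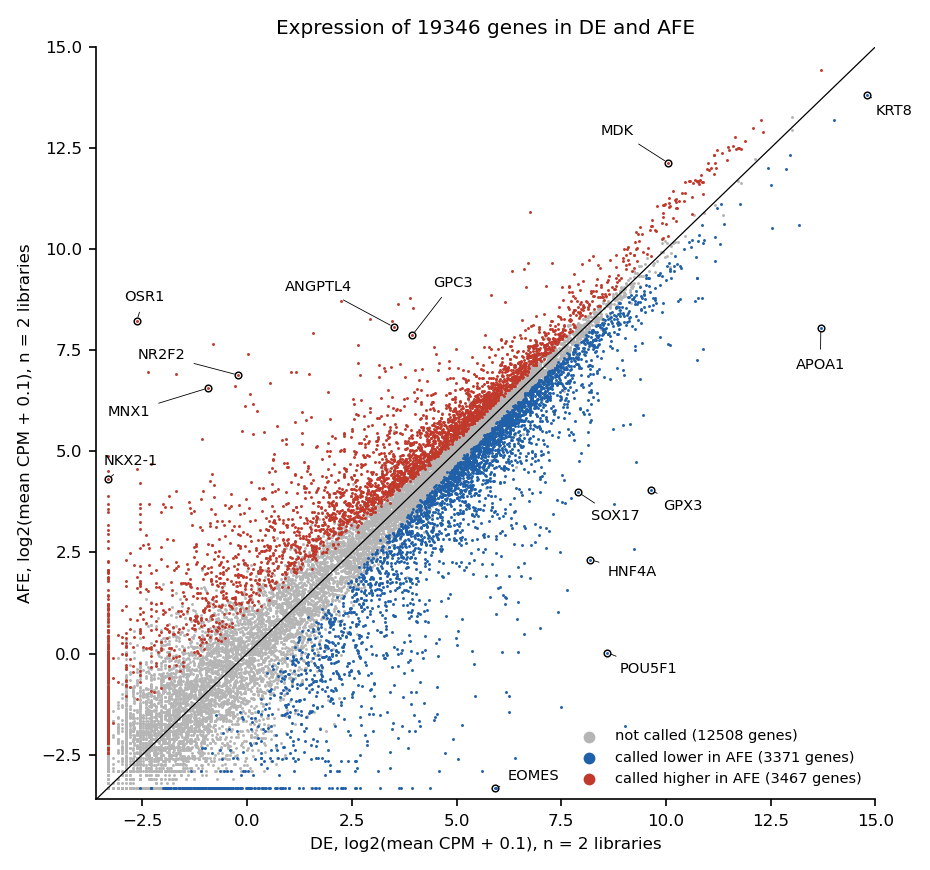
Mean expression of each tested gene in DE (x axis) and AFE (y axis), both as log2(mean CPM + 0.1) over 2 libraries, with the 3467 genes called higher in AFE in red, the 3371 called lower in blue and the line of equal expression in black. NKX2-1 and OSR1 lie at the left edge, near 0 in DE, whereas EOMES lies at the lower edge, at 0 in AFE.

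NKX2-1, OSR1 and NR2F2 rose from DE to AFE and SOX17 fell. NKX2-1, the lung and thyroid factor, was at 0 in both DE libraries and at 20.2 and 19.5 CPM in AFE (at least 95.0-fold higher, adjusted p = 8.8e-06). OSR1, a zinc-finger factor of foregut mesoderm that is also needed for lung specification, had 0.121 and 0 CPM in DE and 291 and 304 CPM in AFE (ratio 4917, 95% counting interval 1183 to 35296, adjusted p = 5.8e-06). NR2F2, a nuclear receptor of mesenchyme, atrium and venous endothelium, stood at 0.692 and 0.841 CPM in DE and 122 and 114 CPM in AFE (154-fold higher, SE 0.144, adjusted p = 2.0e-07). In all 3 genes both AFE libraries lay far above both DE libraries. SOX17, the endoderm factor, went the other way, with 251 and 228 CPM in DE and 16.5 and 15.0 CPM in AFE (15.2-fold lower, SE 0.223, adjusted p = 1.4e-05). In bulk samples, fewer cells of a type and less RNA per cell cannot be told apart, here and in what follows.

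Stage marker sets, which hold the 4 genes above as well, gave both directions in AFE. Of 10 DE markers 8 fell, and the other 2, GATA6 (121, 128, 88.9 and 93.9 CPM, adjusted p = 0.098) and the chemokine receptor CXCR4 (30.9, 22.1, 35.6 and 34.0 CPM, adjusted p = 0.12), were not called. Of 12 anterior foregut and lung field markers 11 were tested. Besides NKX2-1, SOX2, PAX9, TP63 and EYA1 were among those that rose. NKX2-5 fell, and TBX1, ISL1 and FOXE1 were among those not called. The EYA1 call ended without DE replicate 1 (log2 change 2.62, adjusted p = 0.058), and the PAX9 value is uncertain because SLC25A21, on the opposite strand, overlaps it with 164% of its count. The thyroid factor FOXE1 stayed near 0 (0, 0, 0 and 0.20 CPM). Of 11 splanchnic mesenchyme markers 4 rose (OSR1, NR2F2, COL3A1 and TBX5) and 2 fell. TBX5 was under the floor in AFE, and its call did not hold in every fit.

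Endoderm factors split into a larger group that fell and a smaller one that rose. Of 29 tested, 14 were called lower and 4 higher, against 17.4% and 17.9% of all genes, with a median log2 change of −1.55 (−3.09 without genes under 5 FPKM). EOMES, the T-box factor that opens the endoderm program, went from 63.2 and 58.4 CPM to 0 in both AFE libraries (at least 307-fold lower, adjusted p = 5.9e-06). HNF4A, the nuclear receptor of liver and gut epithelium, had 279 and 309 CPM in DE and 5.60 and 4.19 CPM in AFE (60.0-fold lower, SE 0.431, adjusted p = 4.5e-05). GATA4 stood at 496 and 519 CPM in DE and 52.1 and 48.5 CPM in AFE (10.1-fold lower, SE 0.175, adjusted p = 1.1e-05). For each of these the stages were well apart.

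The head and anterior factor OTX2 differed between the DE libraries (129 and 85.8 CPM) but was low in both AFE libraries (3.92 and 3.17 CPM, 30.3-fold lower, adjusted p = 1.7e-05). HHEX, a factor of ventral foregut and liver, fell from 72.6 and 65.5 CPM to 2.77 and 2.43 CPM (26.5-fold lower, adjusted p = 1.8e-05). The FOXA pioneer factors, which open chromatin in endoderm, moved in opposite directions. FOXA2 fell from 297 and 292 CPM to 96.8 and 87.1 CPM (3.2-fold lower, SE 0.0990, adjusted p = 1.6e-05). FOXA1 rose from 17.1 and 17.9 CPM to 59.6 and 53.8 CPM (3.23-fold higher, SE 0.120, adjusted p = 3.8e-05).

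FOXA1, KLF5, MNX1 and CDX2 were the endoderm factors called higher. MNX1, a homeobox factor of dorsal pancreas and motor neurons, had 0.415 and 0.438 CPM in DE and 94.4 and 95.2 CPM in AFE (221-fold higher, SE 0.268, adjusted p = 2.2e-06). CDX2, the intestinal and posterior factor, stood at 3.04 and 2.19 CPM in DE and 21.1 and 26.6 CPM in AFE (9.10-fold higher, SE 0.276, adjusted p = 2.3e-04). Both genes were low again in LPO, where MNX1 had 3.40 and 4.18 CPM and CDX2 0.823 and 0.667 CPM.

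Genes of pluripotency fell. Of 20 pluripotency and primitive streak genes 10 fell and 3 rose, against 17.4% and 17.9% of all genes (median log2 change −1.25, and −2.46 without genes under 5 FPKM). POU5F1, the core factor of pluripotency, had 390 and 383 CPM in DE and 1.03 and 0.80 CPM in AFE (422-fold lower, SE 0.209, adjusted p = 4.8e-07). VRTN, a DNA-binding protein tied to vertebra number in pigs, fell from 189 and 171 CPM to 0.131 and 0.467 CPM (601-fold lower, adjusted p = 7.1e-06), with a log2 change of −9.23, and of −10.41 without AFE replicate 2 and −8.58 without AFE replicate 1. ZSCAN10, a stem cell zinc-finger protein, fell from 25.7 and 26.9 CPM to 0.0490 and 0.117 CPM (ratio 318, interval 110 to 3300, adjusted p = 1.2e-05). DNMT3B, a de novo DNA methyltransferase, fell less (98.5, 108, 45.8 and 45.1 CPM, 2.27-fold, adjusted p = 1.5e-05).

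SOX2, which belongs both to pluripotency and to the anterior foregut, was among the genes that rose, from 0.121 and 0.0701 CPM to 5.35 and 6.6 CPM (ratio 62.6, interval 19.3 to 280, adjusted p = 1.2e-05). The orphan receptor ESRRB had 0.813 and 0.140 CPM in DE and 14.1 and 14.7 CPM in AFE (30.1-fold higher, adjusted p = 0.0014). Its log2 change of 4.91 was 6.66 without DE replicate 1 and 4.13 without DE replicate 2. MIXL1, a primitive streak factor, had 1.04 and 0.140 CPM in DE and 6.59 and 8.09 CPM in AFE (12.4-fold higher, adjusted p = 0.0076), with a log2 change of 3.63, 5.69 without DE replicate 1 and 2.81 without DE replicate 2.

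**Figure D2:**
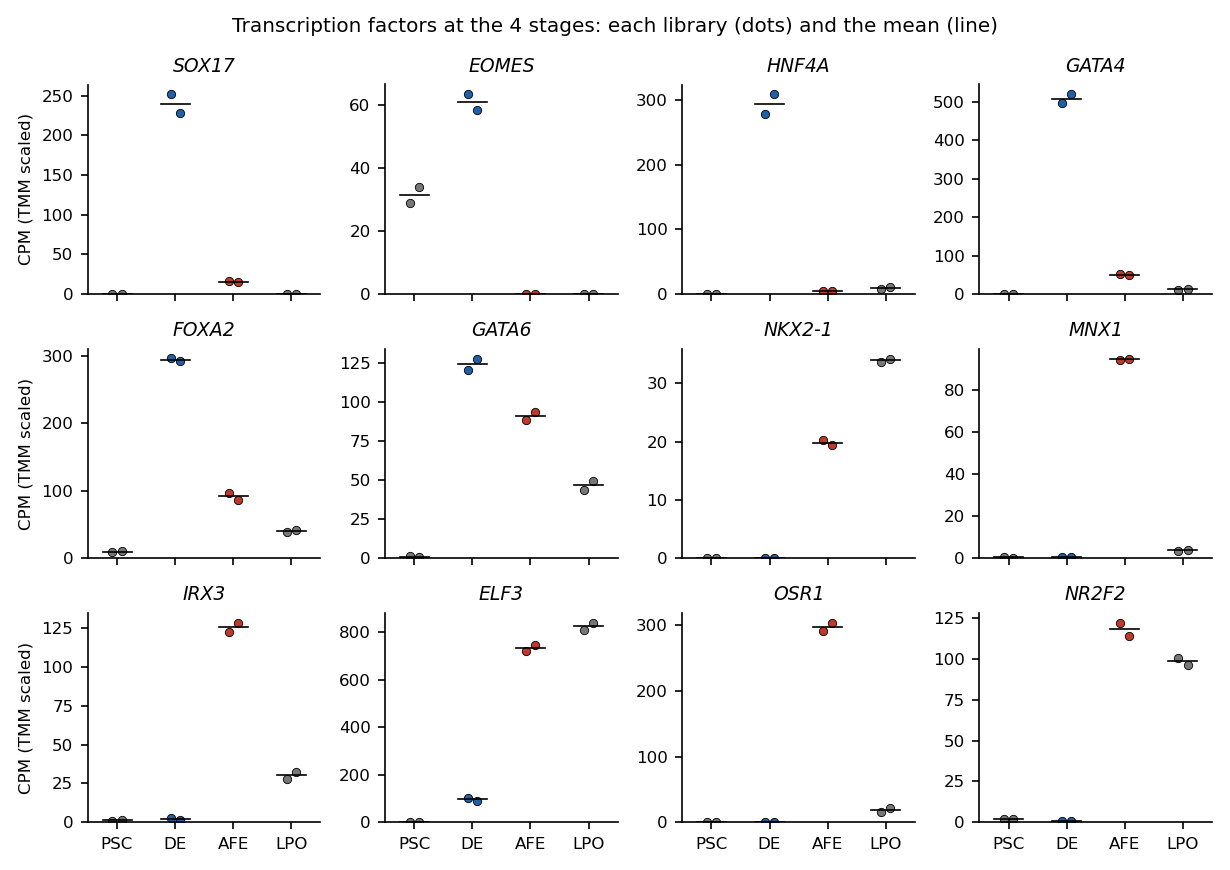
Level of 12 transcription factors in each library (dots) with the stage mean (line), in CPM after TMM scaling, at PSC, DE (blue), AFE (red) and LPO. SOX17, EOMES, HNF4A and GATA4 peak in DE, MNX1, IRX3 and OSR1 peak in AFE, and NKX2-1 stands at 20.2 and 19.5 CPM in AFE and 33.7 and 34.2 CPM in LPO.

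Factors of the foregut, pharynx and lung rose more often than they fell. Of 35 tested 16 rose and 5 fell, against 17.9% and 17.4% of all genes (median log2 change 0.97, and 0.57 with bounds). When genes under 5 FPKM were left out of the test, 9 rose and 3 fell. IRX3, an Iroquois homeobox factor, had 2.85 and 1.44 CPM in DE and 122 and 128 CPM in AFE (58.3-fold higher, SE 0.338, adjusted p = 1.5e-05). ELF3, an ETS factor of barrier epithelia, went from 104 and 91.5 CPM to 719 and 748 CPM (7.49-fold higher, SE 0.171, adjusted p = 1.6e-05). In both factors the AFE libraries were close to each other and far from DE.

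Among the foregut and lung genes that fell were factors known from the tips of the growing lung. ETV5, an ETS factor induced by FGF, fell from 25.9 and 25.4 CPM to 7.62 and 6.50 CPM (3.63-fold lower, adjusted p = 1.9e-05), and its relative ETV4 from 47.9 and 38.0 CPM to 15.5 and 14.7 CPM (2.84-fold lower, adjusted p = 5.5e-04). ID2, an inhibitor of helix-loop-helix factors and a BMP target, had 280 and 298 CPM in DE and 56.7 and 64.1 CPM in AFE (4.78-fold lower, adjusted p = 4.5e-06). SFTPB, a surfactant protein, was at 0 in DE and at 13.4 and 12.6 CPM in AFE (at least 62.0-fold higher, adjusted p = 4.9e-05), and it had 4.61 and 4.18 CPM in LPO.

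Of 51 mesenchymal and splanchnic factors 20 rose and 11 fell (median log2 change 1.71, 0.69 with bounds and 0.99 without AFE replicate 1). The list holds factors that endoderm also uses, and the genes that rose included the HOX cofactors MEIS1 and MEIS2. MEIS1 had 1.49 and 0.666 CPM in DE and 66.0 and 61.8 CPM in AFE (59.2-fold higher, adjusted p = 7.8e-06), with a log2 change of 5.89, and of 6.58 without DE replicate 1. MEIS2 rose from 5.50 and 4.29 CPM to 42.3 and 44.7 CPM (8.88-fold higher, SE 0.183, adjusted p = 1.5e-05). By contrast the homeobox gene MSX2, a BMP target, fell from 152 and 185 CPM to 14.4 and 13.1 CPM (12.3-fold lower, SE 0.149, adjusted p = 4.5e-06).

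Genes that define lung and foregut mesenchyme gave no common direction. FOXF1, the Hedgehog-induced factor of splanchnic mesoderm, was not called (3.29, 2.65, 5.29 and 4.30 CPM, adjusted p = 0.20). TCF21 (2.06, 1.66, 0.392 and 0.50 CPM, adjusted p = 0.075) and PDGFRB (15.5, 12.3, 10.6 and 11.6 CPM, adjusted p = 0.16) were not called either. BARX1, the stomach mesenchyme factor, fell from 21.4 and 18.7 CPM to 2.97 and 1.87 CPM (8.27-fold lower, adjusted p = 1.2e-04). COL1A1 could not be placed, since its DE libraries read 123 and 21.7 CPM and its AFE libraries 89.8 and 88.3 CPM (adjusted p = 0.76). COL3A1, a fibrillar collagen of mesenchyme, rose from 28.5 and 19.3 CPM to 144 and 146 CPM (6.06-fold higher, adjusted p = 1.3e-04). TBX5, a factor of heart and lung mesenchyme, was called higher with 0.131 and 0.0667 CPM in AFE, under the floor. That call ended without AFE replicate 1 (adjusted p = 0.061), with counts divided by 4 (adjusted p = 0.11) and on log2 FPKM at each pseudocount and with quantile normalization (adjusted p = 0.20 to 0.66).

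Retinoic acid and HOX genes are given only for context. Of 20 retinoic acid genes 13 rose and 3 fell (median log2 change 2.56), among them the aldehyde dehydrogenase ALDH1A1 (55.1-fold higher, adjusted p = 5.0e-07) and the retinaldehyde reductase DHRS3 (8.36-fold higher, adjusted p = 1.2e-06). Of 32 HOX genes 16 rose and 0 fell (median log2 change 2.06, and 1.85 with bounds). At an unadjusted p under 0.05, 18 were higher and 0 lower, and the DESeq2 Wald test called 18 higher and 0 lower. There was 1 fall without AFE replicate 1 and on log2 FPKM at each pseudocount and with quantile normalization. HOXB1, for example, went from 0 in both DE libraries to 24.2 and 21.6 CPM (at least 110-fold higher, adjusted p = 5.2e-05).

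**Figure D3:**
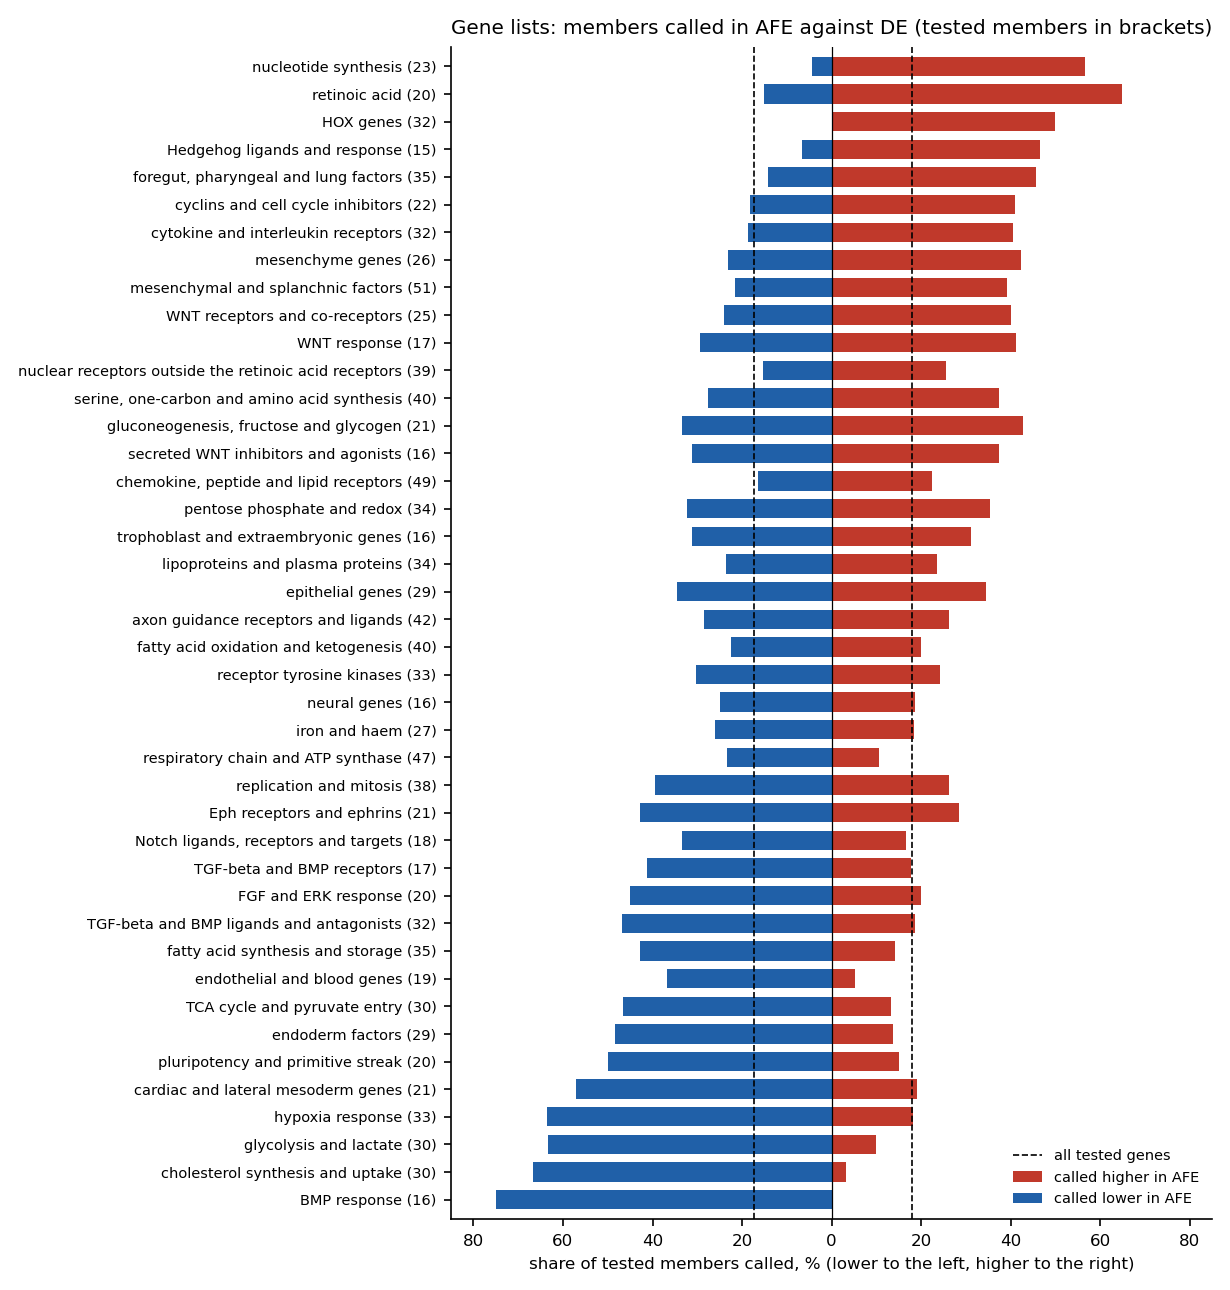
Share of the tested members of each gene list called higher in AFE (red, to the right) and lower (blue, to the left), with the shares over all tested genes as dashed lines (17.9% and 17.4%). Nucleotide synthesis, with 13 of 23 members higher, stands at the top, and BMP response, with 12 of 16 members lower and none higher, at the bottom.

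Outside the retinoic acid receptors, 39 nuclear receptors were tested, of which 10 rose and 6 fell (median log2 change −0.05), against 17.9% and 17.4% of all genes. Leaving out genes under 5 FPKM gave 6 rises. The 2 COUP-TF receptors, orphan nuclear receptors that regulate patterning, rose together. NR2F1 had 1.04 and 2.05 CPM in DE and 46.8 and 51.3 CPM in AFE (31.8-fold higher, SE 0.598, adjusted p = 5.3e-04), beside the 154-fold rise of NR2F2. The liver X receptors, which sense oxysterols, fell: NR1H2 had 61.7 and 63.6 CPM in DE and 32.0 and 33.6 CPM in AFE (1.91-fold lower, adjusted p = 2.2e-04). NR1H3 fell 1.95-fold (adjusted p = 7.8e-04), but ACP2 on the opposite strand and MADD on the same strand overlap it with 67.2% and 78.0% of its count, so its value is uncertain. The germ cell receptor NR6A1 fell from 146 and 144 CPM to 74.9 and 81.9 CPM (1.85-fold lower, adjusted p = 7.4e-05). The lipid sensors PPARA, PPARD and PPARG and the vitamin D receptor VDR were not called (adjusted p = 0.89, 0.19, 0.13 and 0.059).

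Of 33 receptor tyrosine kinases 8 rose and 10 fell, against 17.9% and 17.4% of all genes (median log2 change −0.32, and −0.23 with bounds). The median was −0.19 without DE replicate 1, −0.50 without DE replicate 2 and −0.60 without genes under 5 FPKM. The FGF receptors parted. FGFR4, a receptor of endoderm and liver, had 61.2 CPM in each DE library and 3.67 and 3.87 CPM in AFE (16.2-fold lower, SE 0.116, adjusted p = 7.7e-07). FGFR3 fell from 194 and 171 CPM to 22.4 and 20.02 CPM (8.61-fold lower, SE 0.129, adjusted p = 4.5e-06), and FGFR1 from 193 and 190 CPM to 117 and 112 CPM (1.67-fold lower, adjusted p = 0.0015). FGFR2, whose epithelial form receives FGF10 in the lung bud, rose from 42.8 and 42.6 CPM to 57.9 and 58.4 CPM (1.36-fold higher, SE 0.0753, adjusted p = 0.0028).

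The ERBB receptors of the EGF family parted as well. ERBB2 went from 343 and 351 CPM to 163 and 155 CPM (2.18-fold lower, adjusted p = 7.7e-04) and ERBB3 from 185 and 203 CPM to 96.5 and 91.9 CPM (2.06-fold lower, adjusted p = 4.9e-05). EGFR rose from 6.05 and 4.85 CPM to 9.42 and 10.4 CPM (1.82-fold higher, adjusted p = 0.0012). The collagen receptor DDR1 (142, 126, 218 and 221 CPM, 1.64-fold, adjusted p = 6.7e-04) and the insulin-like growth factor receptor IGF1R (12.8, 14.1, 30.2 and 24.8 CPM, 2.04-fold, adjusted p = 0.0028) rose too. Receptors known from mesoderm or stem cells were among those that fell: the PDGF receptor PDGFRA (72.8, 59.5, 8.50 and 7.12 CPM, 8.46-fold, adjusted p = 1.6e-04), the VEGF receptor KDR (79.9, 43.3, 7.20 and 6.8 CPM, 8.80-fold, adjusted p = 0.0017) and KIT (67.0, 56.1, 31.0 and 27.6 CPM, 2.1-fold, adjusted p = 3.6e-04). KIT is also among the DE markers counted above. Without DE replicate 2, AFE replicate 1 or AFE replicate 2, 5 of the tyrosine kinases were called higher. Calls of MET (adjusted p = 0.014) and NTRK2 (adjusted p = 0.024) ended without any single DE or AFE library, with MET at log2 changes of 1.65 to 1.75 and NTRK2 at 2.38 to 3.27.

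WNT receptors were exchanged in part. Of 25 receptors and co-receptors 10 rose and 6 fell (median log2 change 0.49, and 0.32 without AFE replicate 1), and 3 fell when genes under 5 FPKM were left out. GPC3, a surface glypican that binds WNT and Hedgehog ligands, had 15.2 and 15.3 CPM in DE and 234 and 233 CPM in AFE (15.3-fold higher, SE 0.122, adjusted p = 1.2e-06). The frizzled receptor FZD10 rose from 1.19 and 1.59 CPM to 12.1 and 8.87 CPM (7.53-fold higher, adjusted p = 3.6e-05) and FZD2 from 120 and 96.1 CPM to 210 and 223 CPM (2.01-fold higher, adjusted p = 3.4e-04). PTK7, a planar polarity co-receptor, rose from 173 and 170 CPM to 322 and 328 CPM (1.9-fold higher, adjusted p = 4.9e-05). ROR1, a receptor for non-canonical WNT ligands, fell from 54.0 and 61.5 CPM to 4.19 and 4.92 CPM (12.7-fold lower, SE 0.162, adjusted p = 5.6e-06). FZD5, a foregut frizzled, differed between the DE libraries (27.5 and 13.8 CPM) and had 6.17 and 6.42 CPM in AFE (3.28-fold lower, adjusted p = 0.0025), and FZD7 fell 1.39-fold (adjusted p = 0.0023).

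Secreted WNT inhibitors changed in both directions, with 6 of 16 inhibitors and agonists higher and 5 lower (median log2 change 0.09). Counts were 3 higher without AFE replicate 1, 3 lower without AFE replicate 2 and 3 lower without genes under 5 FPKM. DKK1, a head inducer that blocks LRP co-receptors, had 30.2 and 16.3 CPM in DE and 0.457 and 0.467 CPM in AFE (50.1-fold lower, SE 0.478, adjusted p = 9.2e-05). SFRP5, a decoy receptor of the ventral foregut, rose from 4.89 and 3.43 CPM to 40.6 and 39.5 CPM (9.61-fold higher, SE 0.304, adjusted p = 1.5e-04). Of 17 WNT response genes 7 rose and 5 fell (3 without genes under 5 FPKM), among them ZNRF3, a ligase that removes frizzled receptors (7.51, 9.04, 33.0 and 33.1 CPM, 4.0-fold higher, adjusted p = 1.8e-04), and the receptor TNFRSF19 (6.59, 6.66, 25.2 and 25.2 CPM, 3.80-fold higher, adjusted p = 1.5e-05). CCND1, cyclin D1, fell from 93.0 and 104 CPM to 47.1 and 48.2 CPM (2.07-fold lower, adjusted p = 7.2e-05).

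Of 16 BMP response genes 12 fell and 0 rose (median log2 change −1.83), with 10 to 14 falls and 0 rises across the alternative fits. At an unadjusted p under 0.05, 14 were lower and 0 higher. The inhibitory SMAD6, which BMP induces, had 386 and 465 CPM in DE and 50.2 and 42.9 CPM in AFE (9.14-fold lower, SE 0.123, adjusted p = 3.2e-06). ID3, a direct BMP target, fell from 595 and 632 CPM to 193 and 196 CPM (3.16-fold lower, SE 0.0702, adjusted p = 4.6e-06). TBX3 fell from 73.3 and 83.9 CPM to 10.9 and 9.32 CPM (7.76-fold lower, SE 0.179, adjusted p = 1.8e-05).

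Of 32 ligands and antagonists of the TGF-beta and BMP families 15 fell and 6 rose (median log2 change −0.35). The median was −0.22 without DE replicate 1, −0.69 without DE replicate 2 and −2.26 without genes under 5 FPKM. BMP2 fell from 59.5 and 52.4 CPM to 2.07 and 2.98 CPM (22.1-fold lower, adjusted p = 1.1e-05) and BMP4 from 247 and 165 CPM to 44.8 and 39.7 CPM (4.88-fold lower, adjusted p = 1.1e-04). Inhibitors fell as well: the activin trap FST from 76.3 and 118 CPM to 1.44 and 1.15 CPM (74.7-fold lower, adjusted p = 4.5e-06), and BMPER, which binds BMPs outside the cell, from 167 and 179 CPM to 2.2 and 1.65 CPM (89.6-fold lower, adjusted p = 8.7e-06). Against this trend the antagonist TWSG1 rose from 10.1 and 12.5 CPM to 21.6 and 22.3 CPM (1.94-fold higher, adjusted p = 0.0017). The activin binder FSTL3 rose from 23.0 and 13.8 CPM to 45.2 and 51.4 CPM (2.63-fold higher, adjusted p = 0.0021). The BMP antagonist CHRD rose 3.93-fold (adjusted p = 1.6e-04), but THPO on the opposite strand overlaps it with 38.0% of its count.

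Of 17 receptors for these ligands 7 fell and 3 rose (median log2 change −0.43, and −0.67 without genes under 5 FPKM). ACVR1, a type I BMP and activin receptor, had 40.5 and 43.7 CPM in DE and 9.84 and 9.35 CPM in AFE (4.38-fold lower, SE 0.137, adjusted p = 2.4e-05). The pseudoreceptor BAMBI, itself a BMP target, fell from 98.5 and 119 CPM to 27.5 and 23.5 CPM (4.27-fold lower, adjusted p = 5.8e-05). The activin receptor ACVR1B (1.93-fold, adjusted p = 3.8e-04), the BMP receptor BMPR1A (1.62-fold, adjusted p = 0.0055) and the TGF-beta receptor TGFBR1 (1.34-fold, adjusted p = 0.0047) fell less. RGMA, a BMP co-receptor, rose from 9.48 and 10.4 CPM to 18.3 and 21.3 CPM (1.99-fold higher, adjusted p = 0.0019).

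Of 20 genes of FGF and ERK feedback 9 fell and 4 rose (median log2 change −0.50). DE 1 stood above DE 2 in 15 of them (75%), and the median was −0.13 without DE replicate 1, −0.80 without DE replicate 2 and −0.93 without genes under 5 FPKM. The RAS inhibitor SPRED1 had 53.4 and 52.3 CPM in DE and 16.9 and 17.6 CPM in AFE (3.06-fold lower, SE 0.0882, adjusted p = 1.2e-05). SPRY2, a feedback inhibitor of receptor kinases, fell from 35.0 and 32.2 CPM to 10.2 and 13.0 CPM (2.89-fold lower, adjusted p = 3.4e-04). The ERK phosphatase DUSP5 went the other way, from 33.0 and 23.5 CPM to 149 and 151 CPM (5.31-fold higher, SE 0.157, adjusted p = 2.6e-05). IER3, an immediate early gene, rose as well (12.1, 3.08, 66.9 and 66.5 CPM, adjusted p = 0.0023). Its log2 change of 3.13 was 4.43 without DE replicate 1 and 2.45 without DE replicate 2.

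Of 15 Hedgehog ligands, receptors and response genes 7 rose and 1 fell, against 17.9% and 17.4% of all genes (median log2 change 0.63). The ligand SHH had 0.138 and 0.596 CPM in DE and 14.1 and 14.2 CPM in AFE (38.3-fold higher, adjusted p = 5.3e-04), with a log2 change of 5.26, 4.56 without DE replicate 1 and 6.64 without DE replicate 2. PTCH1, the receptor and a target of the pathway, rose from 29.8 and 27.3 CPM to 88.1 and 86.9 CPM (3.06-fold higher, SE 0.0877, adjusted p = 1.2e-05). The transducer SMO rose 1.56-fold (adjusted p = 0.0019), and the factor GLI3 rose from 3.98 and 5.82 CPM to 42.1 and 43.9 CPM (8.78-fold higher, SE 0.185, adjusted p = 1.6e-05). HHIP, a surface inhibitor that binds the ligand, fell from 87.6 and 65.6 CPM to 0.571 and 0.20 CPM (197-fold lower, adjusted p = 6.0e-06), with a log2 change of −7.62, and of −8.57 without AFE replicate 1.

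Of 18 Notch genes 3 rose and 6 fell, against 17.9% and 17.4% of all genes (median log2 change −0.52). The median was 0.03 without DE replicate 1, −0.17 without AFE replicate 1 and 0.33 without genes under 5 FPKM, so its direction did not hold. Only 3 were lower without AFE replicate 1 and 2 without genes under 5 FPKM, and 5 were higher without DE replicate 1. The ligand JAG1 rose from 4.65 and 4.38 CPM to 15.6 and 16.3 CPM (3.53-fold higher, adjusted p = 1.4e-05). LFNG, which adds sugars to Notch, fell from 42.1 and 27.2 CPM to 5.03 and 4.45 CPM (7.30-fold lower, adjusted p = 7.4e-05), and the target HEY2 from 12.3 and 12.8 CPM to 0.963 and 0.867 CPM (13.7-fold lower, adjusted p = 3.7e-05).

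Guidance genes changed in both directions, beside 17.9% higher and 17.4% lower among all genes. Of 42 axon guidance receptors and ligands 11 rose and 12 fell (6 without genes under 5 FPKM; median log2 change −0.08), and of 21 Eph receptors and ephrins 6 rose and 9 fell (median log2 change −0.53, −0.16 with bounds, −0.33 without DE replicate 2, −0.34 with counts divided by 4 and −0.04 without genes under 5 FPKM). The neuropilins, co-receptors for semaphorins and VEGF, were exchanged. NRP1 fell from 146 and 132 CPM to 19.0 and 18.5 CPM (7.40-fold lower, SE 0.253, adjusted p = 1.1e-04), whereas NRP2 rose from 20.6 and 23.0 CPM to 196 and 187 CPM (8.77-fold higher, SE 0.288, adjusted p = 1.4e-04). The SLIT ligands, which repel growing axons and cells, rose, among them SLIT3 from 19.4 and 19.1 CPM to 58.1 and 55.2 CPM (2.94-fold higher, adjusted p = 2.9e-05) and SLIT1 from 13.7 and 5.24 CPM to 130 and 138 CPM (14.1-fold higher, adjusted p = 2.0e-04). SLIT1 had a log2 change of 3.82, and of 4.67 without DE replicate 1. EPHB1 fell from 13.4 and 16.6 CPM to 0.506 and 0.333 CPM (35.6-fold lower, adjusted p = 1.4e-04) and EPHA4 from 15.9 and 17.6 CPM to 4.13 and 2.57 CPM (5.00-fold lower, adjusted p = 2.4e-04). Of the Eph and ephrin genes 3 were higher without DE replicate 2 or AFE replicate 2, and 5 were lower without AFE replicate 1.

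On the list of cytokine receptors rises outnumbered falls, with 13 of 32 higher and 6 lower, against 17.9% and 17.4% of all genes (median log2 change 0.34, and 0.23 with bounds). A wider set, chosen after its values were seen, gave no direction. Of 186 genes in the KEGG pathway of cytokine and receptor interaction, which takes in ligands, 34 rose and 37 fell (median log2 change 0). NGFR, the low-affinity neurotrophin receptor that also marks basal cells, had 1.49 and 0.894 CPM in DE and 15.9 and 17.9 CPM in AFE (14.2-fold higher, SE 0.305, adjusted p = 6.8e-05). The TNF receptor TNFRSF1B rose from 29.2 and 33.8 CPM to 97.0 and 110 CPM (3.28-fold higher, adjusted p = 2.6e-05). IFNAR1, a chain of the type I interferon receptor, rose from 12.5 and 11.1 CPM to 36.7 and 37.1 CPM (3.13-fold higher, adjusted p = 5.4e-05). The chains of the shared interleukin receptor parted: IL13RA1 rose 2.23-fold (adjusted p = 2.4e-04) and IL4R fell 1.83-fold (adjusted p = 6.9e-04). EPOR, the erythropoietin receptor, fell from 27.5 and 31.2 CPM to 4.68 and 4.72 CPM (6.25-fold lower, adjusted p = 0.0026).

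Of 49 genes for chemokine, peptide and lipid receptors with their partners 11 rose and 8 fell (median log2 change 0.47, and 0.30 with bounds), shares near those of all genes. The median was 0.16 without DE replicate 2, and 5 rose and 4 fell without genes under 5 FPKM. GPRC5A, a retinoic acid-induced orphan receptor of lung epithelium, had 5.31 and 4.40 CPM in DE and 31.6 and 32.4 CPM in AFE (6.59-fold higher, SE 0.128, adjusted p = 7.3e-06). The adenosine receptor ADORA1 rose from 0.104 and 0.263 CPM to 11.1 and 13.6 CPM (66.6-fold higher, adjusted p = 6.0e-05), with a log2 change of 6.06, and of 6.85 without DE replicate 2. LPAR3, a receptor for lysophosphatidic acid, rose from 0.0692 and 0.491 CPM to 15.1 and 11.5 CPM (adjusted p = 8.9e-04). Its log2 change of 5.57 was 4.76 without DE replicate 1 and 7.53 without DE replicate 2. ECE1, the protease that makes endothelin, fell from 290 and 283 CPM to 103 and 98.4 CPM (2.85-fold lower, SE 0.0638, adjusted p = 4.6e-06).

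**Figure D4:**
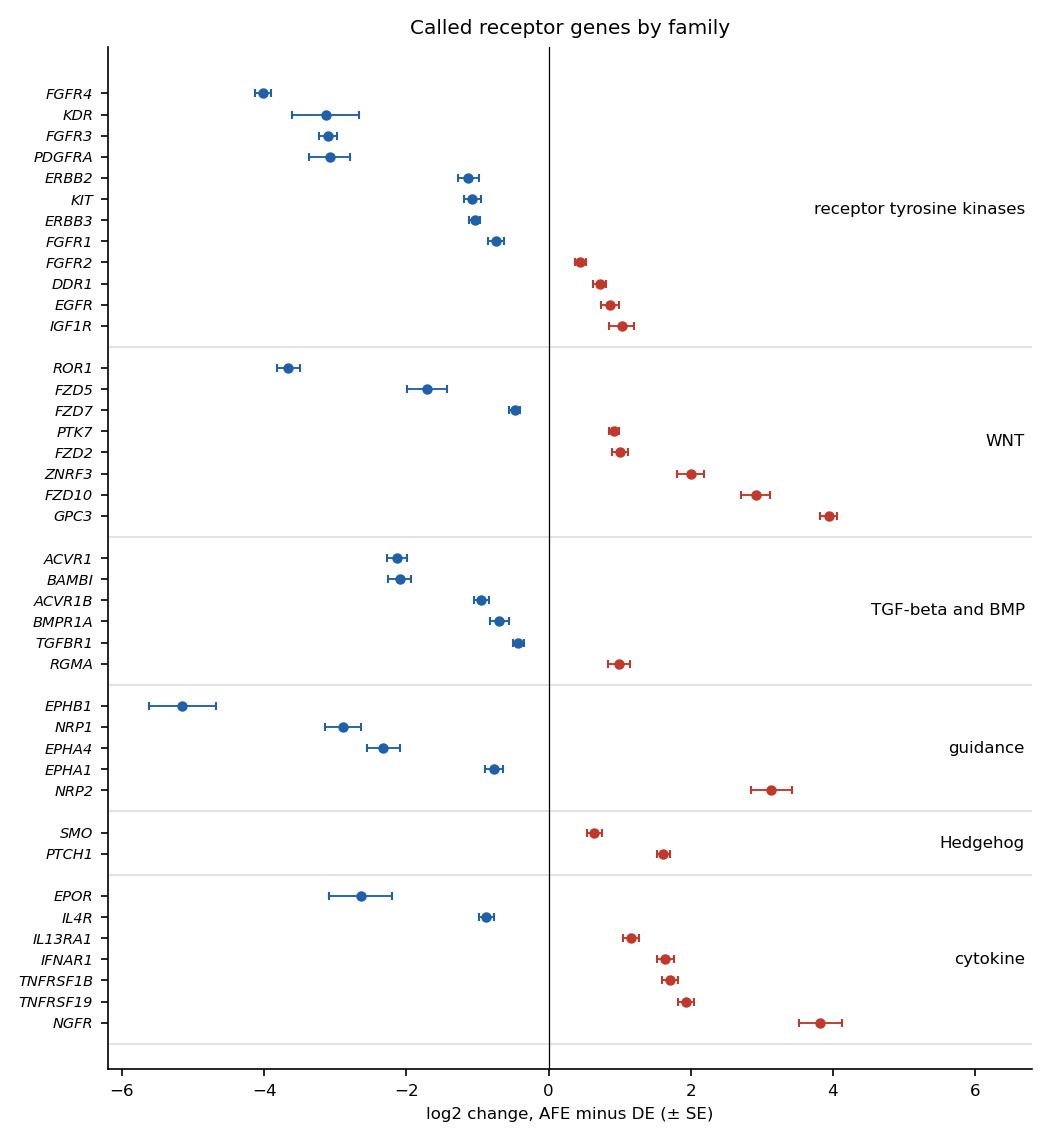
Log2 change (AFE minus DE, x axis) with its standard error for a selection of called receptor genes, grouped by family, higher in red and lower in blue. MET, NTRK2, the nuclear receptors and the chemokine, peptide and lipid receptors are not shown. Within the FGF, ERBB, frizzled and neuropilin families members lie on both sides of 0, for example NRP1 at −2.89 and NRP2 at 3.13.

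Genes of glycolysis and of the response to low oxygen fell, but the DE libraries differed in them. Of 30 glycolysis and lactate genes 19 fell and 3 rose (median log2 change −0.59), and of 33 hypoxia response genes 21 fell and 6 rose (median log2 change −0.69). SLC2A1, HK2, PDK1, PFKFB3 and PFKFB4 stand in both lists. In DE 1, 28 of the 30 glycolysis genes and 28 of the 33 hypoxia genes stood above DE 2 (93.3% and 84.8%, against 47.2% of all tested genes). Summed over the glycolysis list the libraries held 39845, 30487, 28963 and 29191 CPM, and over the hypoxia list 6146, 4418, 2715 and 2690 CPM. Without DE replicate 1, glycolysis gave 13 falls and 4 rises with a median of −0.34, and hypoxia 17 falls and 6 rises with a median of −0.53. Without DE replicate 2 the medians were −0.80 and −0.87. Falls numbered 11 and 12 for glycolysis without AFE replicate 1 and 2, and 14 and 12 for hypoxia, with 3 hypoxia rises without AFE replicate 2. The part that the difference between the DE libraries plays in these results was not tested beyond these values.

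The glucose transporter SLC2A1 fell clearly in spite of that difference, from 1774 and 1534 CPM to 429 and 416 CPM (3.92-fold lower, SE 0.0878, adjusted p = 5.7e-06). LDHA, which makes lactate from pyruvate, had 2932 and 2051 CPM in DE and 1128 and 1104 CPM in AFE (2.23-fold lower, SE 0.141, adjusted p = 5.7e-04). ALDOC, an aldolase, fell from 447 and 291 CPM to 109 and 117 CPM (3.26-fold lower, SE 0.193, adjusted p = 4.0e-04). ENO1, enolase, was called higher (6005, 4225, 7608 and 7677 CPM, adjusted p = 0.034). That call did not hold: its log2 change of 0.58 was 0.34 without DE replicate 2 (adjusted p = 0.15) and −0.04 on quantile-normalized FPKM (adjusted p = 0.92). It also ended without any single AFE or LPO library (0.57 to 0.59) and with log2 FPKM at each pseudocount (0.55). PDK4, a kinase that keeps pyruvate out of the TCA cycle, rose from 2.61 and 2.30 CPM to 19.9 and 15.5 CPM (7.20-fold higher, SE 0.240, adjusted p = 8.9e-05).

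Among the hypoxia response genes the peptide hormone ADM fell from 81.3 and 73.7 CPM to 13.5 and 12.3 CPM (6.02-fold lower, SE 0.112, adjusted p = 5.1e-06). PLOD2, a collagen lysyl hydroxylase, fell from 308 and 282 CPM to 108 and 98.4 CPM (2.86-fold lower, adjusted p = 1.6e-05), and the growth factor VEGFA from 81.8 and 73.8 CPM to 49.2 and 47.3 CPM (1.61-fold lower, adjusted p = 2.7e-04). In these 3 genes the DE libraries lay close together. ERO1A, an oxidase of the endoplasmic reticulum chosen after its values were seen, showed the widest gap, with 203 and 17.7 CPM in DE and 5.19 and 7.55 CPM in AFE (17.3-fold lower, adjusted p = 0.013). Its log2 change of −4.12 was −1.47 without DE replicate 1 and −5.01 without DE replicate 2, and the call ended without AFE replicate 1 (−3.87), AFE replicate 2 (−4.41), and on log2(FPKM + 1) with and without quantile normalization (−2.45 and −2.58).

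Some genes named for hypoxia rose instead. ANGPTL4, which inhibits lipoprotein lipase and is also a target of PPAR receptors, had 13.4 and 9.15 CPM in DE and 268 and 269 CPM in AFE (23.8-fold higher, SE 0.287, adjusted p = 2.2e-05). BHLHE40, a clock repressor, rose from 16.0 and 5.75 CPM to 79.1 and 82.0 CPM (7.41-fold higher, adjusted p = 0.0014), with a log2 change of 2.89, and of 3.81 without DE replicate 1. EGLN3, an oxygen sensor, rose from 28.3 and 13.9 CPM to 72.1 and 76.8 CPM (3.52-fold higher, adjusted p = 0.0016), with a log2 change of 1.82, and of 2.42 without DE replicate 1.

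Glycogen and gluconeogenesis genes moved both ways, with 9 of 21 higher and 7 lower (median log2 change 0.04). PPP1R3B, which brings a phosphatase to glycogen, rose from 7.13 and 5.17 CPM to 59.1 and 59.6 CPM (9.65-fold higher, SE 0.166, adjusted p = 9.5e-06). Among the glycogen phosphorylases, which release glucose units, PYGL and PYGM rose and PYGB was not called (adjusted p = 0.22): PYGL from 56.8 and 45.2 CPM to 224 and 246 CPM (4.61-fold higher, adjusted p = 1.2e-05) and PYGM from 2.63 and 1.07 CPM to 23.6 and 25.3 CPM (13.2-fold higher, adjusted p = 2.6e-04). PYGM had a log2 change of 3.72, and of 4.51 without DE replicate 1. UGP2, which makes the sugar donor for glycogen, fell from 146 and 127 CPM to 38.1 and 33.8 CPM (3.78-fold lower, adjusted p = 1.1e-05). SLC37A4, the glucose 6-phosphate transporter, fell from 79.9 and 80.0 CPM to 32.1 and 33.9 CPM (2.42-fold lower, adjusted p = 3.1e-05). Counts on this list rested on single libraries: 4 lower without DE replicate 1, 4 higher without DE replicate 2, 5 higher and 3 lower without AFE replicate 1, and 4 higher and 4 lower without AFE replicate 2.

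Of 30 genes of the TCA cycle and its supply, some of them cytosolic, 14 fell and 4 rose (median log2 change −0.24), and of 47 respiratory chain genes 11 fell and 5 rose (median log2 change −0.09). The called share of the respiratory chain genes is near that of all genes. The cytosolic malate dehydrogenase MDH1 fell from 743 and 711 CPM to 438 and 427 CPM (1.68-fold lower, SE 0.0559, adjusted p = 4.9e-05), and the cytochrome oxidase subunit COX4I1 from 1288 and 1360 CPM to 736 and 739 CPM (1.80-fold lower, SE 0.0697, adjusted p = 8.0e-05). In the malic enzymes ME1 and ME3 and the isocitrate dehydrogenases IDH1 and IDH2, the mitochondrial form rose and the cytosolic form fell. The mitochondrial malic enzyme ME3 had 1.89 and 0.964 CPM in DE and 26.6 and 28.4 CPM in AFE (19.3-fold higher, SE 0.367, adjusted p = 9.8e-05), against a fall of ME1 from 39.4 and 41.2 CPM to 20.7 and 19.3 CPM (2.02-fold lower, adjusted p = 1.9e-04). The isocitrate dehydrogenase IDH2 rose from 245 and 230 CPM to 565 and 559 CPM (2.37-fold higher, adjusted p = 6.3e-04), and IDH1 fell from 174 and 169 CPM to 121 and 114 CPM (1.46-fold lower, adjusted p = 6.3e-04). Falls numbered 8 and 9 of the TCA genes and 5 of the respiratory genes each without AFE replicate 1 or 2, with 3 respiratory rises without AFE replicate 1 and 7 respiratory falls without DE replicate 1.

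Of 30 cholesterol synthesis and uptake genes 20 fell and 1 rose (median log2 change −0.73), and 18 to 21 fell in every alternative fit. IDI1, which makes the isoprenoid building blocks usable, fell from 987 and 931 CPM to 353 and 345 CPM (2.75-fold lower, SE 0.0650, adjusted p = 5.8e-06). FDPS, farnesyl diphosphate synthase, fell from 562 and 666 CPM to 174 and 187 CPM (3.40-fold lower, SE 0.106, adjusted p = 1.7e-05). MSMO1, HMGCS1 and SQLE fell 2.97-fold, 2.43-fold and 2.79-fold (adjusted p = 6.5e-06, 1.0e-05 and 1.7e-05). Only 1 of the 30 genes stood above DE 2 in DE 1 by more than the ratio of 5 to 4. The gene that rose was ABCG1, a cholesterol exporter chosen after its values were seen (0.432, 0.28, 0.718 and 1.03 CPM, adjusted p = 0.014). Its call ended without DE replicate 2 (log2 change 1.00, against 1.29), without AFE replicate 2 (1.01), with the 4 DE and AFE libraries alone (1.28) and on log2 FPKM (0.08 to 0.48).

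Fatty acid synthesis and storage genes fell in 15 of 35 cases and rose in 5 (median log2 change −0.45, −0.33 with bounds and −0.26 without DE replicate 1), with 9 falls without AFE replicate 1 or 2. The desaturase FADS2 fell from 347 and 304 CPM to 123 and 120 CPM (2.68-fold lower, adjusted p = 1.4e-05) and ACLY, which supplies acetyl-CoA, from 216 and 209 CPM to 122 and 115 CPM (1.80-fold lower, adjusted p = 6.2e-05). PLIN2, a coat protein of lipid droplets, rose from 15.5 and 18.8 CPM to 37.1 and 35.2 CPM (2.11-fold higher, adjusted p = 2.4e-04). Fatty acid oxidation showed 8 of 40 higher (5 without AFE replicate 1 or 2, or without genes under 5 FPKM) and 9 lower, near the share of all genes. FABP3, a fatty acid carrier of muscle, fell from 905 and 964 CPM to 229 and 223 CPM (4.14-fold lower, SE 0.0787, adjusted p = 3.2e-06).

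APOA1, APOE and APOC3 fell. APOA1, which carries cholesterol in high-density lipoprotein, had 13444 and 13162 CPM in DE and 256 and 272 CPM in AFE (50.3-fold lower, SE 0.0718, adjusted p = 4.7e-08). APOE fell from 9257 and 9342 CPM to 1483 and 1594 CPM (6.04-fold lower, SE 0.0736, adjusted p = 7.4e-07), and APOC3 from 17.8 and 12.5 CPM to 0 in both AFE libraries (at least 76.5-fold lower, adjusted p = 3.9e-04). Other members of the lipoprotein and plasma protein list rose. MTTP, which loads lipid onto apolipoprotein B, went from 17.3 and 14.8 CPM to 127 and 129 CPM (7.96-fold higher, SE 0.111, adjusted p = 2.8e-06), while APOB itself had at most 0.534 CPM in the 4 libraries and was not called. ITIH2, a hyaluronan-binding inhibitor, rose from 0 and 0.123 CPM to 22.6 and 24.2 CPM (ratio 382, interval 92.7 to 2779, adjusted p = 1.7e-04). SERPINA1, alpha-1-antitrypsin, rose from 0 in DE to 13.0 and 16.8 CPM (at least 71.2-fold higher, adjusted p = 0.0012). Over the whole list 8 of 34 rose and 8 fell (median log2 change −0.19). Falls numbered 13 on log2(FPKM + 1), log2(FPKM + 0.5) and quantile-normalized FPKM, 5 without DE replicate 1 or 2, and rises 4 without AFE replicate 1; 3 rose and 3 fell without genes under 5 FPKM.

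Of 40 serine, one-carbon and amino acid genes 15 rose and 11 fell (median log2 change 0.01). PHGDH, the entry enzyme of serine synthesis, had 126 and 185 CPM in DE and 792 and 816 CPM in AFE (5.18-fold higher, SE 0.175, adjusted p = 4.7e-05). The next enzyme, PSAT1, chosen after its values were seen, rose from 38.1 and 61.6 CPM to 140 and 141 CPM (2.82-fold higher, SE 0.191, adjusted p = 7.3e-04). The last, PSPH, was not called (43.7, 62.9, 53.8 and 52.3 CPM, adjusted p = 1.0), and its value is uncertain because an unnamed gene on the opposite strand overlaps it with 67.7% of its count. GLDC, which breaks down glycine, fell from 264 and 235 CPM to 31.2 and 30.7 CPM (8.05-fold lower, SE 0.193, adjusted p = 2.4e-05). GLUD1, glutamate dehydrogenase, fell from 266 and 291 CPM to 64.3 and 65.5 CPM (4.29-fold lower, SE 0.0740, adjusted p = 2.2e-06), and SLC3A2, the heavy chain of amino acid exchangers, from 1715 and 2037 CPM to 429 and 456 CPM (4.24-fold lower, SE 0.106, adjusted p = 9.5e-06). Asparagine synthetase, ASNS, fell 1.86-fold (adjusted p = 1.1e-04).

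Nucleotide synthesis genes rose, with 13 of 23 higher and 1 lower, though by modest amounts (median log2 change 0.29, with called rises of 1.19-fold to 2.90-fold). CTPS2, a CTP synthase, had 61.6 and 64.8 CPM in DE and 183 and 184 CPM in AFE (2.90-fold higher, SE 0.0658, adjusted p = 4.8e-06). The nucleoside diphosphate kinase NME1 rose from 45.7 and 49.4 CPM to 130 and 133 CPM (2.76-fold higher, SE 0.0964, adjusted p = 2.7e-05). TYMS, thymidylate synthase, rose from 126 and 123 CPM to 271 and 249 CPM (2.09-fold higher, SE 0.0707, adjusted p = 2.9e-05). IMPDH2, the entry enzyme of GTP synthesis, rose 1.96-fold (adjusted p = 1.4e-05), with NDUFAF3 on the opposite strand overlapping it with 17.5% of its count. UMPS, which makes UMP, was the gene that fell (67.0, 68.6, 38.8 and 42.5 CPM, 1.67-fold, adjusted p = 7.8e-04).

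Redox and iron genes changed one by one, and the iron and haem counts were near the shares of all genes (17.9% higher and 17.4% lower). Of 34 pentose phosphate and redox genes 12 rose and 11 fell (7 and 7 without AFE replicate 2), and of 27 iron and haem genes 5 rose and 7 fell (3 rises without AFE replicate 1, 4 falls without genes under 5 FPKM). The secreted glutathione peroxidase GPX3 had 775 and 822 CPM in DE and 15.5 and 17.2 CPM in AFE (48.8-fold lower, SE 0.206, adjusted p = 2.6e-06). Its relative in the endoplasmic reticulum, GPX8, rose from 18.1 and 16.9 CPM to 68.2 and 74.7 CPM (4.08-fold higher, SE 0.0937, adjusted p = 6.7e-06). Thioredoxin reductase, TXNRD1, fell from 62.8 and 55.1 CPM to 11.8 and 10.5 CPM (5.28-fold lower, adjusted p = 1.3e-04), and the microsomal transferase MGST1 rose from 59.6 and 49.4 CPM to 167 and 153 CPM (2.93-fold higher, adjusted p = 3.9e-05). ALAS2, the erythroid enzyme that starts haem synthesis, fell from 77.2 and 75.8 CPM to 2.51 and 4.87 CPM (20.7-fold lower, adjusted p = 1.7e-04), and the ferritin chain FTL from 5975 and 5661 CPM to 3068 and 3098 CPM (1.89-fold lower, adjusted p = 8.7e-06).

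**Figure D5:**
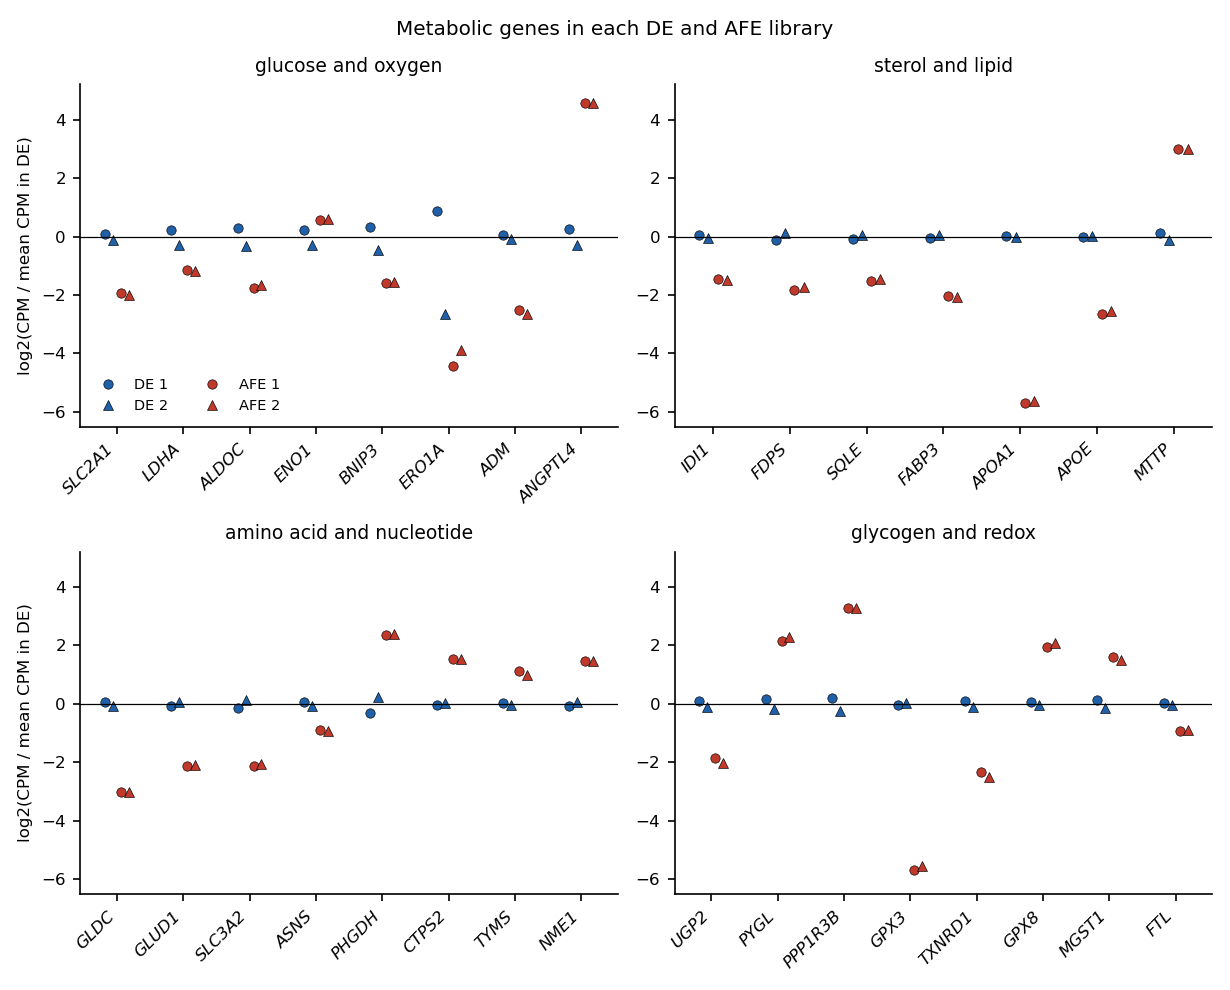
Metabolic genes in each library, as log2 of the CPM over the gene's mean CPM in DE (y axis), with DE in blue, AFE in red, library 1 as circles and library 2 as triangles. DE 1 lies above DE 2 for the genes of glucose and oxygen, most of all ERO1A (203 against 17.7 CPM).

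The largest changes by log2 included genes of several kinds. CBR2, a carbonyl reductase of lung, rose from 0.173 and 0.245 CPM to 114 and 128 CPM (573-fold higher, SE 0.412, adjusted p = 5.9e-06). CYP17A1, a steroid hydroxylase, rose from 0.138 and 0 CPM to 13.0 and 10.9 CPM (ratio 173, interval 47.1 to 1422, adjusted p = 4.6e-04). FGFBP1, which carries FGF ligands out of the matrix, rose from 0 in DE to 11.8 and 11.7 CPM (at least 56.1-fold higher, adjusted p = 6.5e-05). Solute carriers as a class, with 58 of 310 higher and 74 lower (18.7% and 23.9%), were near the shares of all genes. Among the largest falls were SLC6A19, for neutral amino acids, from 24.9 and 16.3 CPM to 0 (at least 104-fold lower, adjusted p = 9.7e-04), and SLC13A5, for citrate, from 37.7 and 27.2 CPM to 0.131 and 0 CPM (ratio 497, interval 136 to 4066, adjusted p = 3.1e-04). SLC7A8, an amino acid exchanger, fell from 1694 and 1742 CPM to 156 and 151 CPM (11.2-fold lower, SE 0.0676, adjusted p = 1.9e-07). NPC2, which carries cholesterol out of lysosomes, fell from 1930 and 1861 CPM to 180 and 187 CPM (10.3-fold lower, SE 0.0578, adjusted p = 1.2e-07).

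By size of change in CPM, translation genes rose and keratins fell. The elongation factor EEF1A1 had 13686 and 12796 CPM in DE and 22327 and 22126 CPM in AFE (1.68-fold higher, SE 0.0498, adjusted p = 2.9e-05), and the ribosome-bound scaffold RACK1 rose from 2426 and 2374 CPM to 5570 and 5568 CPM (2.32-fold higher, SE 0.0633, adjusted p = 1.0e-05). Of 125 genes that the deposited table assigns to the KEGG ribosome pathway, a set chosen after its values were seen, 92 rose and 7 fell, with a median log2 change of 0.80, and of 0.47 with 84 rises on quantile-normalized FPKM. RPL7A and EEF2 lost their calls on quantile-normalized FPKM (log2 change 0.28 and 0.26, against 0.93 and 0.91). The heparin-binding growth factor MDK rose from 1066 and 1058 CPM to 4523 and 4461 CPM (4.23-fold higher, SE 0.0529, adjusted p = 5.0e-07). KRT8, a keratin of simple epithelia, fell from 27684 and 29354 CPM to 14132 and 14655 CPM (1.98-fold lower, SE 0.0526, adjusted p = 1.1e-05), and its partner KRT18 fell 1.78-fold (adjusted p = 6.6e-05). The matrix protein FN1 fell from 6061 and 5849 CPM to 1470 and 1458 CPM (4.07-fold lower, SE 0.0556, adjusted p = 6.4e-07). Ribosomal, elongation factor and keratin genes have near-identical processed copies, and the labels do not say how reads were divided between copies.

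Cell cycle genes moved both ways. Of 38 replication and mitosis genes 10 rose and 15 fell (median log2 change −0.02), with 5 and 6 rises without AFE replicate 1 and 2. The mitotic cyclin CCNB1 fell from 199 and 192 CPM to 101 and 106 CPM (1.88-fold lower, adjusted p = 5.4e-05), and the kinesin KIF23 from 64.2 and 70.7 CPM to 32.1 and 35.0 CPM (2.01-fold lower, adjusted p = 1.2e-04). MCM3, a helicase subunit loaded before replication, rose from 106 and 106 CPM to 163 and 171 CPM (1.57-fold higher, adjusted p = 6.0e-04), and CDK2, the kinase of replication onset, from 43.0 and 35.8 CPM to 62.6 and 60.5 CPM (1.56-fold higher, adjusted p = 0.0021). The list pools replication with mitosis, and 2 KEGG sets, chosen after their values were seen, parted. Of 34 DNA replication genes 16 rose and 1 fell (median log2 change 0.35). Of 118 cell cycle genes 19 rose and 36 fell (median log2 change −0.07). Of 22 cyclins and inhibitors 9 rose and 4 fell (median log2 change 0.11). The cell cycle inhibitor CDKN1A rose from 46.3 and 39.6 CPM to 122 and 118 CPM (2.79-fold higher, adjusted p = 1.8e-05). MYCN rose 2.11-fold (adjusted p = 6.7e-04), and MYC fell 2.42-fold (adjusted p = 8.3e-04).

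Markers of other cell types were followed beside these results. Of 29 epithelial genes 10 rose and 10 fell, and the defining E-cadherin CDH1 (393, 412, 393 and 383 CPM, adjusted p = 0.48) and EPCAM (437, 514, 526 and 474 CPM, adjusted p = 0.59) were not called. CLDN3, a tight junction claudin, rose from 63.9 and 79.6 CPM to 402 and 433 CPM (5.82-fold higher, adjusted p = 5.5e-06). The 26 mesenchyme genes gave 11 rises and 6 falls (median log2 change 0.04, and 0.15 with bounds), and their summed level was 10367 and 9826 CPM in DE and 4820 and 4888 CPM in AFE. The matrix protein FN1 and vimentin are members, and their falls together were as large as the fall of the sum. The sum therefore gives no direction for the other members. Collagen COL5A2 rose from 3.22 and 1.03 CPM to 53.7 and 51.6 CPM (24.7-fold higher, adjusted p = 7.3e-05), with a log2 change of 4.63, 5.67 without DE replicate 1 and 4.02 without DE replicate 2. POSTN, periostin, rose 19.4-fold (1.42, 1.44, 27.4 and 28.2 CPM, adjusted p = 4.0e-07). Vimentin, VIM, fell from 1165 and 949 CPM to 199 and 202 CPM (5.26-fold lower, adjusted p = 3.7e-06), and N-cadherin, CDH2, from 273 and 290 CPM to 76.8 and 78.2 CPM (3.63-fold lower, adjusted p = 3.1e-06).

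Of 21 cardiac and lateral mesoderm genes 12 fell and 4 rose (median log2 change −2.1), with 4 falls and a median of −0.78 without genes under 5 FPKM, and their sum stood at 436 and 355 CPM in DE and 391 and 409 CPM in AFE. MYH7, the slow cardiac and skeletal myosin, rose from 5.57 and 6.85 CPM to 193 and 200 CPM (31.7-fold higher, SE 0.179, adjusted p = 2.4e-06), whereas NPPA, atrial natriuretic peptide, fell from 81.1 and 42.5 CPM to 0 (at least 312-fold lower, adjusted p = 3.4e-04). The cardiac factor TBX20 fell from 13.1 and 12.5 CPM to 0.180 and 0.20 CPM (66.8-fold lower, adjusted p = 5.6e-05). Of 19 endothelial and blood genes 7 fell and 1 rose (3 falls without DE replicate 1, 4 without AFE replicate 1), and their sum was 252 and 203 CPM in DE and 57.6 and 59.0 CPM in AFE. The defining endothelial genes PECAM1 (5.90, 5.54, 4.59 and 4.84 CPM) and CDH5 (3.04, 2.14, 2.02 and 2.08 CPM) were low and not called. Of 16 neural genes 4 fell and 3 rose (5 rises without DE replicate 1), and their sum went from 677 and 532 CPM to 399 and 387 CPM. The neural counts stand beside 17.4% lower and 17.9% higher among all genes. ZIC2, a neural plate and stem cell factor, fell from 218 and 178 CPM to 3.35 and 2.43 CPM (68.3-fold lower, adjusted p = 9.5e-07). PAX6, of neural and eye tissue, the leukocyte gene PTPRC and the yolk sac receptor CUBN were at 0 in all 4 libraries. Of 16 trophoblast and extraembryonic genes 5 rose and 5 fell (8 rises on quantile-normalized FPKM, 3 and 3 without genes under 5 FPKM), and their sum was 697 and 767 CPM in DE and 334 and 339 CPM in AFE. The part of these cell types in the results above was not tested.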

How the data were processed

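RNA was sequenced from 2 libraries at each of 4 stages, with libraries made by a dUTP stranded protocol per the labels' protocols. Among the tools in the submitters' processing notes, which give no roles, are StringTie 2.1.6, HISAT2 2.2.1, cutadapt 1.9, edgeR and DESeq2. The genome build, and whether the counting used strand, are not given in the sources used here. The deposited table holds the authors' expected counts (whole numbers, unscaled) and FPKM computed by the authors. Headers name PSC as EPSC and LPO as Organoid.

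Counts of 19346 genes passing filterByExpr were scaled by TMM and fitted with edgeR 4.0.16 (R 4.3.3) over all 8 libraries with stage as group (4 residual degrees of freedom), and AFE minus DE was tested with glmQLFTest and Benjamini-Hochberg adjustment. The fit was tested on simulated data. Symbols came from the table, with 130 filled from a reference table. Figures were drawn with matplotlib 3.10.9 in Python 3.11.15. Alternatives, run with DESeq2 1.42.0 and limma 3.58.1 where not edgeR, were DESeq2 size factors, median centring, no filter or 5 FPKM in 2 libraries, the 4 libraries alone, the DESeq2 Wald test, log2 FPKM with 3 pseudocounts or quantile normalization, counts divided by 4, the replicate block and leaving out each library.

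The members, markers and 42 gene lists were chosen with earlier results of these data known. Named genes are the 4 markers, the 15 largest rises and falls by log2 among called genes with a symbol, 5 FPKM or more and stages that do not overlap, the 10 largest by CPM, and per list up to 6 called members with the smallest adjusted p plus up to 3 against its main direction. Called receptors and the stage markers are named as well, and some genes are left out for length. Of 1318 list entries 1190 were tested. An overlapping neighbour is named where it holds 10% or more of a gene's count. No sequence is printed, since no sequence table was used here. Results for a few genes are not reported here.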

Additional observations from a re-analysis of the deposited data

How the results depend on the processing

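Across 20 alternatives no gene called here was called in the opposite direction, and of 297 named genes 1 changed sign, ENO1, at a log2 change of −0.0397 on quantile-normalized log2(FPKM + 1). The calls of 15 of the 297, ENO1 among them, ended under at least 1 alternative. Leaving out a library gave 2296 to 4107 genes called higher, 2336 to 3937 lower, 1358 to 2038 higher by 2-fold or more and 1344 to 1771 lower by 2-fold or more, the lowest count of rises coming without AFE replicate 2. Rises of 2-fold or more numbered 928 when genes under 5 FPKM were left out, 748 on log2(FPKM + 1), 1035 on log2(FPKM + 0.5) and 769 with quantile normalization, and falls numbered 884, 958 and 873 with the filter, on log2(FPKM + 1) and with quantile normalization. A filter tests fewer genes, and a pseudocount shrinks the change of low genes. Whether replicate numbers pair the samples is not in the labels. Deviations of same-numbered libraries correlated across genes at −0.0136 to 0.00782, which cannot decide whether they shared a culture or batch. With the replicate number as a block 3077 genes were called higher and 3060 lower. Depth limits genes under the floor of 12 counts in each library.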
